A study of Mus musculus with 96 samples.

Results

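The central gene-poor part of the interval deleted in mouse chromosome band 4E2 was taken as the HindIII restriction fragments of chromosome 4 whose end lies between 152.35 and 153.40 Mb in the mm9 genome. This rule gave 306 of the 48320 HindIII fragments of the chromosome and used positions only, with no measured value. How often these fragments had been ligated to each of 12 viewpoint fragments was counted by PE-4Cseq, a form of chromosome conformation capture that sequences both ends of each ligation product. The cells were mouse embryonic fibroblasts (MEFs) at confluent passage 4, grown from embryos of 13.5 days. For the lines with the deletion, the fathers were chimeras made from Df/Dp engineered 129S5SvEvBrd embryonic stem cells and the mothers were C57BL/6J. For the control lines the authors name F1 +129/+Bl6 crosses. All 4 lines were hybrids of both strains, and each is 1 embryo-derived line. The df/+Bl6 lines 129S5E71 (E71) and 129S5E98 (E98) carried the engineered deletion on their 129S5 chromosome (Df), and their intact C57BL/6J chromosome is written +DBl6. The +129/+Bl6 lines 129S5E117 (E117) and 129S5E118 (E118) carried no deletion, and their chromosomes are written +129 and +Bl6. Reads were assigned to a chromosome from a strain polymorphism next to the viewpoint. The region is missing from Df, so Df enters only as the level measured without it.

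Chromosome conformation capture joins DNA ends that lie close together in the fixed nucleus, and fragments near each other along the chromosome are joined most often. Chromatin with many active genes and chromatin with few genes tend to keep to separate compartments, and stretches of DNA that contact themselves more than their surroundings form domains. A gene-poor stretch between gene-dense ones is a place where such preferences can show as contacts that depart from the distance between 2 fragments.

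The region held 5 protein-coding genes, against 20 in an equally long stretch upstream and 18 in one downstream. Protein-coding genes covered 16.03% of its bases, 53.2% of the upstream neighbour, 67.7% of the downstream neighbour and 40.0% of chromosome 4. The 5 genes were Ajap1, whose product is a membrane protein of adherens junctions, and, packed at the downstream end, A430005L14Rik, Dffb, BC046331 and Lrrc47. Dffb encodes the nuclease that cuts DNA during apoptosis, and Lrrc47 encodes a leucine-rich repeat protein. Ajap1 spans chr4:152747330-152856939, and the other 4 lie from 153331346 to 153395622. The base composition was near that of the neighbours, at 49.4% GC against 51.3% upstream and 51.7% downstream. Fragments were shorter, with a median of 2.11 kb against 3.37 kb and 2.92 kb.

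The 72 libraries of the intact chromosomes gave 70 that were used, and 2 libraries of line E117 at viewpoint 10, with 444 and 1255 reads, were left out. The 70 libraries held 64058 to 3969613 reads on chromosome 4 (median 962004), of which 200 to 1201520 lay in the region. In 6 replicate pairs the reads at distant shared fragments correlated at 0.937 to 0.972, against -0.186 to 0.354 in the other 29 pairs compared. These were E71 with E98 of +DBl6 at viewpoints 4, 6, 7 and 8, and E117 with E118 of +129 and of +Bl6 at viewpoint 9. They were summed and counted as 1 library each, which left 64 libraries. Libraries of lines in different groups were also correlated. At viewpoint 10, Df of E98 correlated with +129 of E118 at 0.591, and +DBl6 of E98 with +Bl6 of E118 at 0.579. At viewpoint 11, Df of E71 correlated with +129 of E117 at 0.678, and +DBl6 of E71 with +Bl6 of E117 at 0.720. The smaller library shared 61.3% to 95.8% of its distant fragments in these pairs. Viewpoint 10 lies inside the deletion, yet its Df library of E98 held 31156 reads. Whether these libraries share molecules was not tested, and the intact ones stay in the main results. Without E98 at viewpoint 10 and E71 at viewpoint 11, the read ratio of region to mirror at viewpoint 10 was log2 -0.33 (limma adjusted p = 0.22), and the share of +DBl6 against +Bl6 was log2 -0.61 at viewpoint 10 (no test) and -0.19 at viewpoint 11 (limma adjusted p = 0.91). A group had at most 2 libraries per viewpoint, 1 per line, so an exact permutation test of 2 against 2 cannot go below 0.33. The limma tests against the mirror or the fall-off used the spread between lines of both genotypes. The limma tests between chromosomes pooled the spread over +129, +Bl6 and +DBl6, with +129 and +Bl6 of the same cells entered as separate samples. In both, the spread was moderated across viewpoints.

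The places where the chromosome was cut and joined are shown for the 5 fragments of the region that were captured in the most libraries and for the viewpoints 7 and 8 inside it. All sequences are the plus strand of the mm9 genome, 66 bases around the downstream cut site of the fragment, with the HindIII site in capitals. They are reference sequence, so strain differences are not shown.
Dffb fragment, chr4:153344476-153344541, intron of Dffb: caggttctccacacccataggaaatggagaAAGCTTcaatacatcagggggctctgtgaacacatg
BC046331 fragment, chr4:153352091-153352156, intron of BC046331: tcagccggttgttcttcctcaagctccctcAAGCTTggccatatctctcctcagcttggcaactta
A430005L14Rik fragment, chr4:153337048-153337113, between A430005L14Rik and Dffb: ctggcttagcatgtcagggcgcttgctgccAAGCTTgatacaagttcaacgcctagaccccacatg
Shared start fragment of Dffb and BC046331, chr4:153351826-153351891, intron of BC046331: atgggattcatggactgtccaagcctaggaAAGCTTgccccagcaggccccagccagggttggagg
Short Dffb fragment, chr4:153343341-153343406, intron of Dffb: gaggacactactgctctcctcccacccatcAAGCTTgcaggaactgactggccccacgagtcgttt
Viewpoint 7, chr4:152483903-152483968, outside annotated genes: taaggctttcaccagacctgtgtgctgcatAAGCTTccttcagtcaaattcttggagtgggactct
Viewpoint 8, chr4:152922547-152922612, outside annotated genes: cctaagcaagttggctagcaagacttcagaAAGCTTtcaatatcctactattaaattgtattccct
Dffb and BC046331 are transcribed away from each other from starts 68 bases apart, and the stretch between them, chr4:153349236-153349302, is shown because the fragment that holds it was among the 5.
Between the Dffb and BC046331 starts: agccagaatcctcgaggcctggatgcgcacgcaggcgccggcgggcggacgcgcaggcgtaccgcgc

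The fragments of the region were captured about as completely as those of its neighbours. Of the 306 fragments, 298 (97.4%) had at least 1 read in at least 1 library, against 96.9% upstream, 99.6% downstream and 76.5% over chromosome 4. The 8 fragments never captured were 113 bp or shorter, with a median of 82.5 bp, whereas the fragments of the region ranged from 10 to 20995 bp. A fragment was captured in a median of 39 and at most 58 of the 64 libraries, and 230 fragments were captured in 50% of them or more. Across the 306 fragments, the number of libraries correlated with log length at r = 0.27 and with GC content at r = 0.083. Those are descriptions across fragments of the same libraries, which are not independent replicates.

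All 5 of the most often captured fragments lay among the genes of the downstream end. The Dffb fragment (153343377 to 153344511, 1135 bp) and the BC046331 fragment (153351862 to 153352126, 265 bp) were each captured in 58 of 64 libraries. The A430005L14Rik fragment (153334380 to 153337083, 2704 bp) was captured in 57, the shared start fragment of Dffb and BC046331 (153348572 to 153351861, 3290 bp) in 55, and the short Dffb fragment (153343070 to 153343376, 307 bp) in 54. The fragments of the gene cluster were captured in a median of 52.5 libraries, against 41 before Ajap1, 38 in Ajap1 and 38 between Ajap1 and A430005L14Rik. Within the cluster the capture was uneven. The first 9 fragments, up to 153353631, were captured in 47 to 58 libraries, whereas the 15468 bp fragment inside BC046331 (153364694 to 153380161) was captured in 20. The fragment that holds the Lrrc47 start was captured in 53 libraries, the one that holds the A430005L14Rik start in 53, and the one that holds the Ajap1 start in 39.

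**Figure D1:**
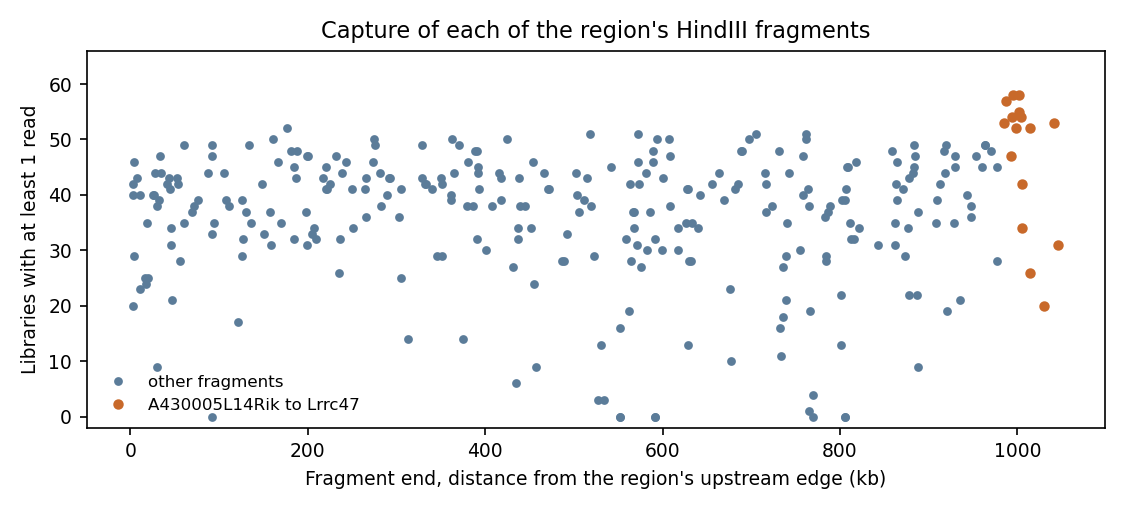
Number of libraries (of 64) with at least 1 read, for each of the 306 fragments by the distance of its end from the region's upstream edge (kb). Orange points are the 16 fragments from A430005L14Rik to Lrrc47, which reach 58 libraries, and blue points are the other 290, which reach 52.

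Viewpoints inside the region had about 50% of their reads in it, and viewpoints outside the deletion had less than 4%. The share is the percent of chromosome 4 reads outside 20 kb around the viewpoint. Viewpoint 7, at 152.48 Mb with no protein-coding gene within 250 kb, had 52.4% (median, range 48.2% to 55.9%, 5 libraries). Viewpoint 8, at 152.92 Mb beside Ajap1, had 50.6% (45.1% to 52.1%, 5 libraries). Viewpoint 6, at 152.15 Mb and 0.205 Mb from the upstream edge, had 29.1% (28.9% to 30.5%, 5 libraries). Viewpoint 9 lies only 0.0286 Mb beyond the downstream edge, yet had 15.7% (13.3% to 16.8%, 4 libraries), and the ranges of viewpoints 6 and 9 did not overlap. These 4 viewpoints captured 93.3% to 94.4% of the fragments of the region (medians).

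From farther away the share was lower, though not in the order of distance. Viewpoint 5 in Acot7, an acyl-CoA thioesterase gene at 151.61 Mb, had 3.99% (3.54% to 4.94%, 6 libraries). Viewpoint 10 in Prdm16, a transcription factor gene at 153.94 Mb, had 4.28% (3.13% to 4.76%, 4 libraries), and these ranges overlapped. Viewpoint 4 in Camta1, a gene for a calmodulin-binding transcription activator, had 2.61% (2.23% to 3.01%, 5 libraries), and viewpoint 3 in Vamp3, a gene for a vesicle fusion protein, had 1.34% (0.983% to 1.55%, 6 libraries). Upstream of the deletion, viewpoint 2 in Ctnnbip1, which encodes an inhibitor of beta-catenin, had 0.163% (0.0572% to 0.308%, 6 libraries). Viewpoint 1 in Masp2, which encodes a complement protease, had 0.512% (0.401% to 0.871%, 6 libraries), above viewpoint 2 in spite of the greater distance. Downstream of the deletion, viewpoint 11 at Gnb1 and Nadk had 0.425% (0.0651% to 0.547%, 6 libraries). Viewpoint 12 in Agrn, 2.16 Mb from the nearest edge against 1.55 Mb for viewpoint 11, had 2.81% (2.44% to 3.39%, 6 libraries). The ranges of viewpoints 1 and 2, and those of 11 and 12, did not overlap. The low value at viewpoint 11 was the +129 library of line E117, with 200 reads in the region (0.0651%, 95% Wilson interval 0.0566% to 0.0747%), and the other 5 libraries had at least 0.393%. This library was also low in the upstream and downstream neighbours, at 0.169% and 1.29% against 0.445% and 4.51% on +Bl6 of the same cells. It is the +129 library whose distant fragments correlated with Df of E71 (0.678). The cause of its low values was not tested. Reads carried no molecular identifiers, so such intervals cover counting error only.

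Df, which lacks the region, gives the level of reads on these fragments when the viewpoint's own chromosome holds no copy of them. In line E71 it was 0.248% at viewpoint 1, 0.0268% at viewpoint 2, 0.00721% at viewpoint 11 and 0.0309% at viewpoint 12. In line E98 it was 0.0417%, 0.0379%, 0.0410% and 0.0532% at the same viewpoints. As a percent of the +DBl6 share in the same cells, these levels ran from 1.27% (viewpoint 12, E71) to 36.4% (viewpoint 1, E71). The highest of them rested on 83 reads, 96.4% of them on 1 fragment. Shares of viewpoint 2 therefore lie nearer to this level than those of viewpoint 12.

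**Figure D2:**
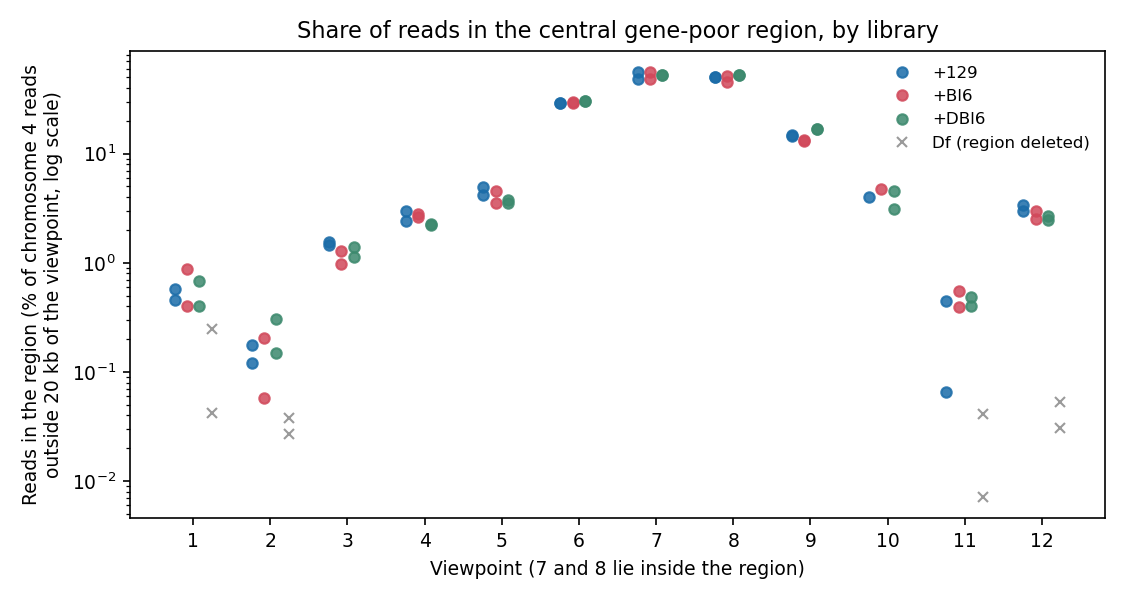
Percent of chromosome 4 reads in the region (log axis) for each viewpoint and library, by chromosome, with reads within 20 kb of the viewpoint left out. Points are the 70 used libraries before summing, and crosses are Df at the viewpoints outside the deletion. Shares run from 0.0572% at viewpoint 2 to 55.9% at viewpoint 7.

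Whether the region was contacted more or less than other sequence at the same distance was asked with its mirror, the fragments at equal distance on the other side of the viewpoint. The ratio of reads per fragment, region over mirror, was tested against 1 with 1 value per line at the 10 viewpoints that have a mirror on the chromosome. It passed the test at 6 of 10 viewpoints (60%; limma, Benjamini-Hochberg adjusted p under 0.05), with the region higher at 4 and lower at 2. The share of fragments captured passed at 4 of 10 (40%). RPM per fragment is the mean number of reads on a fragment after the library's chromosome 4 reads outside 20 kb around its viewpoint were scaled to 1000000.

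Of the 10 viewpoints, viewpoint 6 had the highest ratio in reads. The region had 944 and 947 RPM per fragment on +129 (E117, E118), 962 and 952 on +Bl6 and 996 on +DBl6. The mirror, from 150.90 to 151.94 Mb across Camta1 and the genes around Acot7, had 257 and 226 on +129, 182 and 197 on +Bl6 and 196 on +DBl6. The region was thus above the mirror in all 5 libraries, by 3.67-fold to 5.28-fold. Over lines the ratio was 4.65-fold (log2 2.22, SD 0.11 over 3 line values, limma adjusted p = 0.00049). The difference in captured fragments was smaller and did not pass (log2 0.50, SD 0.37, limma adjusted p = 0.087).

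Viewpoint 9, just beyond the downstream edge, had fewer reads in the region than in its mirror. The region had 482 RPM per fragment on +129, 434 on +Bl6 and 545 and 549 on +DBl6 (E71, E98). Its mirror, from 153.46 to 154.50 Mb, had 1177, 1181, 1464 and 1426. Every library was lower in the region, and the ratio over lines was 0.382-fold (log2 -1.39, SD 0.03 over 3 line values, limma adjusted p = 0.00049). Almost all fragments were captured on both sides, so the captured share did not differ by the test (log2 -0.08, limma adjusted p = 0.31).

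Viewpoints 3 and 4, neighbours along the chromosome, went in opposite directions. From viewpoint 3 in Vamp3 the region had 32.1 to 50.5 RPM per fragment and its mirror 105 to 154, without overlap over 6 libraries. The ratio was 0.311-fold (log2 -1.69, SD 0.37 over 4 lines, limma adjusted p = 0.00077), and fragments were also captured less often (log2 -0.83, limma adjusted p = 0.0026). From viewpoint 4 in Camta1 the region had 72.9 to 98.3 and its mirror 23.5 to 35.6, again without overlap. The ratio was 2.92-fold (log2 1.55, SD 0.10 over 3 line values, limma adjusted p = 0.00049), and captured fragments were 1.79-fold (limma adjusted p = 0.0014).

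The remaining viewpoints gave smaller or less certain ratios. Viewpoint 1 was higher in the region by 1.87-fold in reads (limma adjusted p = 0.0157) and by 2.44-fold in captured fragments (limma adjusted p = 0.0021). Viewpoint 2 was 3.27-fold in captured fragments (limma adjusted p = 0.0021), and its reads ranged from log2 -0.05 to 2.80 over lines and did not pass (limma adjusted p = 0.065). In the mirrors of viewpoints 1 and 2, however, 70.9% and 64.8% of fragments were captured from any other viewpoint, against 97.4% in the region. With such fragments only, the read ratio of viewpoint 1 was log2 0.44 and no longer passed (limma adjusted p = 0.129). Viewpoint 8 was 3.13-fold (limma adjusted p = 0.0108), but this compared only 40 fragments at the upstream end of the region with 18 in the mirror. Viewpoint 7 (log2 0.29, limma adjusted p = 0.053), viewpoint 5 (log2 -0.05, limma adjusted p = 0.63) and viewpoint 10 (log2 -0.18, limma adjusted p = 0.39) did not pass.

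**Figure D3:**
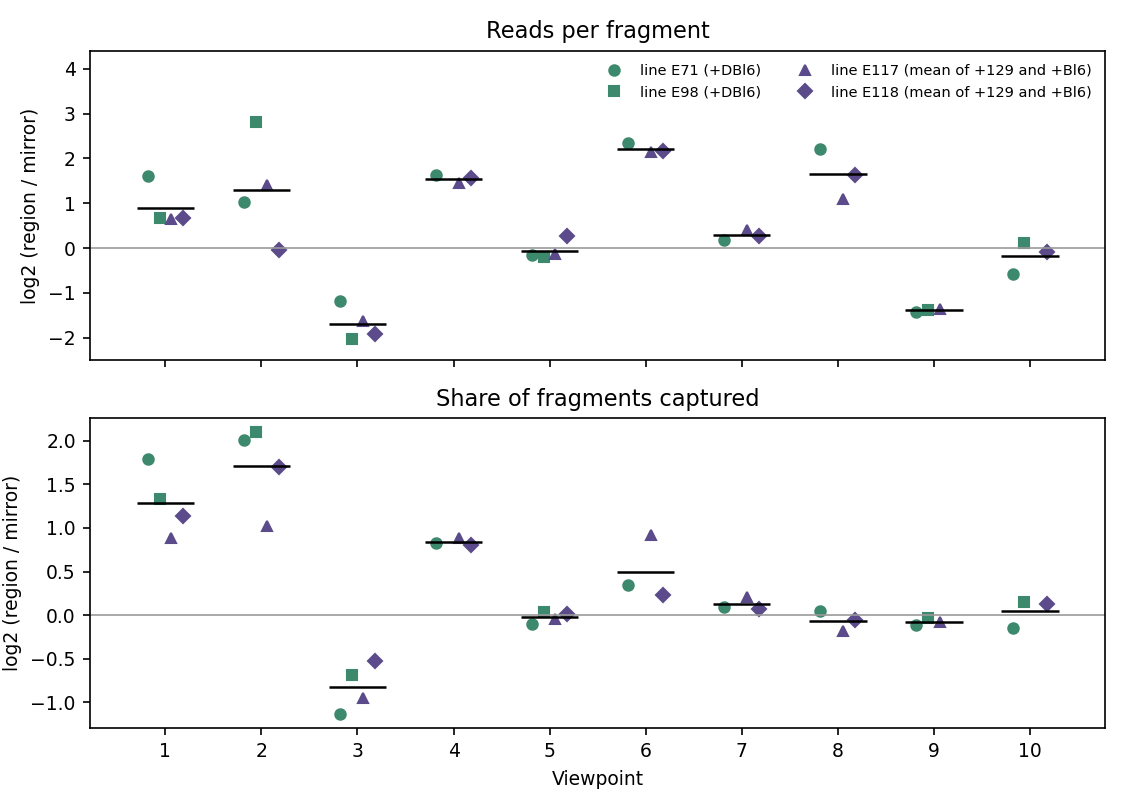
Log2 ratio of region to mirror at equal distance for viewpoints 1 to 10, in reads per fragment (top) and in the share of fragments captured (bottom). Points are MEF lines and bars are their mean. Summed pairs are drawn as 1 point under the first line (E71 at viewpoints 4, 6, 7 and 8, E117 at viewpoint 9). In reads, all points lie above 0 at viewpoints 1, 4, 6, 7 and 8, and below 0 at viewpoints 3 and 9.

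A mirror shows the region against 1 stretch of the chromosome, so the region was also compared with the reads expected from the fall-off with distance at the other viewpoints. The ratio passed at 6 of 12 viewpoints (50%; limma adjusted p under 0.05). Viewpoint 6 was again above (2.20-fold, log2 1.13, SD 0.04), and viewpoints 9 (0.512-fold, log2 -0.97, SD 0.09) and 3 (0.766-fold, log2 -0.39, SD 0.22) were again below. Viewpoints 1 (log2 -0.89), 2 (log2 -3.10) and 11 (log2 -2.84) were below the expected level. At viewpoints 1, 2, 4 and 8 the mean lay above 0 against the mirror and below 0 against the fall-off, and at 1 both passed their test. The direction at these viewpoints therefore depends on the reference chosen, whereas viewpoints 3, 6 and 9 kept theirs under both.

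Both neighbours were set against the same fall-off to see where the region stood apart. From viewpoint 3 the observed over expected reads were 3.19 in the upstream neighbour, 0.803 in the region and 2.37 in the downstream neighbour (medians of 6 libraries). From viewpoint 9 they were 2.92, 0.507 and 1.26 (4 libraries), so the region had the lowest value in spite of lying between the viewpoint and the upstream neighbour. From viewpoint 1 they were 2.15, 0.481 and 2.45, and from viewpoint 12 2.37, 1.24 and 1.61 (6 libraries each). From viewpoint 2 they were 0.332, 0.117 and 0.472, and from viewpoint 11 0.805, 0.165 and 0.755 (6 libraries each). At these 2 viewpoints both neighbours were thus below the expected level too. From viewpoint 6 the medians were 0.630, 2.19 and 2.38 (5 libraries). Over the 12 viewpoints the region had the lowest of the 3 medians at 8, and not at viewpoints 4 (0.541, 0.991 and 1.66), 5 (0.769, 0.888 and 3.71), 6 and 7 (0.935, 0.988 and 1.40). Of these 8, the range of the region overlapped that of a neighbour at viewpoints 2, 8, 11 and 12. Expected reads were set per fragment, and the region held 306 fragments against 228 upstream and 241 downstream in equal length. No such ratio per kb is given here. The reference for the fall-off left out the region's fragments but kept those of the neighbours. These ratios were compared with no test.

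The viewpoints inside the region had about 50% of their reads in it and the rest in both neighbours and beyond. Viewpoint 8 had 11.3% of its reads in the upstream neighbour, 50.6% in the region and 4.64% in the downstream neighbour (medians of 5 libraries). Viewpoint 7, which lies nearer to the upstream neighbour, had 12.5%, 52.4% and 3.49%. Relative to the fall-off with distance, viewpoint 7 had 0.935 in the upstream and 1.40 in the downstream neighbour, and viewpoint 8 had 2.62 and 0.9499. Viewpoint 6, which lies in the upstream neighbour, had 30.3%, 29.1% and 3.83%.

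In bins of 50 kb, medians differed between neighbouring bins inside the gene cluster. From viewpoint 8, RPM per fragment were 856 (549 to 1047) at chr4:153300001-153350000 and 118.1 (35.6 to 285) in the last 50 kb of the region. From viewpoint 6 they were 667 (626 to 1100) and 112 (94.7 to 339), and from viewpoint 7 506 (209 to 690) and 126 (58.1 to 241). At viewpoints 6 and 8 the ranges of both bins did not overlap over 5 libraries. Viewpoints 3 and 5, beside gene-dense stretches, had another course. From viewpoint 5 the values were 134 (77.2 to 192) at chr4:153250001-153300000, then 448 (377 to 537) and 341 (248 to 347) in the last 2 bins, and 341 (298 to 459) in the first bin beyond the region. From viewpoint 3 they were 15.7 (0 to 33.3), then 204 (168 to 284) and 67.6 (23.2 to 112). Medians were thus lower in the last bin than in the bin before it from all 5 viewpoints, and from viewpoints 3 and 5 that bin was above the one preceding it. The bins hold 10 to 14 fragments each, and this place was chosen after the values were seen, so it was given no test. The Dffb fragment lies in chr4:153300001-153350000. It alone had medians of 4070 RPM from viewpoint 8, 1922 from 6, 2000 from 7, 1705 from 5 and 1030 from 3. The part of this fragment in the differences between bins was not tested.

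Contacts between the viewpoints can be read from either end. Around viewpoint 8, viewpoint 7 had 647 RPM per fragment (452 to 713), and around viewpoint 7, viewpoint 8 had 1420 (1008 to 1986), over 5 libraries each. Around viewpoint 9, viewpoint 8 had 298 (186 to 437) at 0.506 Mb and viewpoint 7 had 234 (97.2 to 282) at 0.945 Mb. Viewpoint 8 thus gave more reads to viewpoint 7 at 0.439 Mb than to viewpoint 9 at 0.506 Mb, without overlap between libraries.

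**Figure D4:**
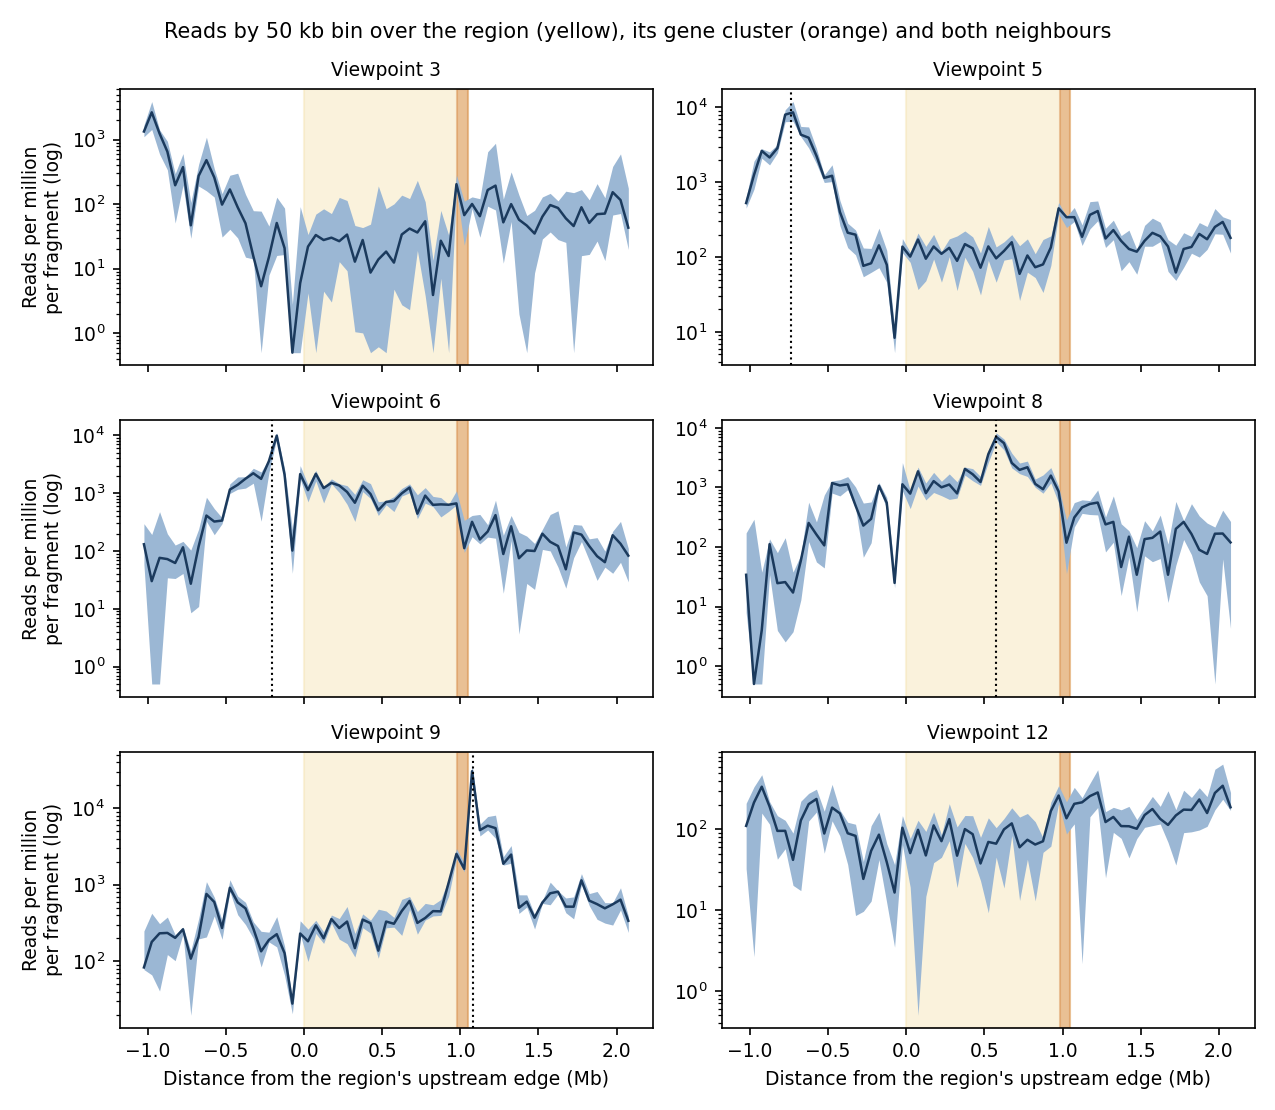
RPM per fragment (log axis) in 50 kb bins over the region (yellow), its gene cluster (orange) and both neighbours, for 6 viewpoints, by the distance from the region's upstream edge (Mb). Lines are medians over libraries, bands run from the lowest to the highest library, dotted lines mark the viewpoint, and values under 0.5 are drawn at 0.5. The last bin of the region has a median of 112 from viewpoint 6 and 118.1 from viewpoint 8, and viewpoint 5 has 448 and 341 in the last 2 bins.

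Seen from viewpoints 1, 3, 5, 11 and 12, the genes of the downstream end had more reads than the rest of the region. The cluster from A430005L14Rik to the region's edge is 68.7 kb with 16 fragments, and the rest of the region has 290. It was picked after the values had been seen, so its values are given as a description. Reads over those expected from the fall-off were higher in the cluster than in the rest by 9.68-fold from viewpoint 3 (log2 3.27, SD 0.48, 4 lines), by 8.98-fold from viewpoint 5 (log2 3.17, SD 0.36) and by 8.01-fold from viewpoint 1 (log2 3.00, SD 0.93). They were higher by 6.63-fold from viewpoint 11 (log2 2.73, SD 0.98) and by 2.32-fold from viewpoint 12 (log2 1.22, SD 0.58). At these 5 viewpoints the cluster was higher in 6 of 6 libraries. Viewpoint 2 had log2 1.25 with an SD of 1.58 and was higher in 5 of 6 libraries.

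The other viewpoints did not set the cluster apart. The mean log2 ratio was 0.35 at viewpoint 4, 0.26 at viewpoint 6, -0.01 at viewpoint 7, -0.50 at viewpoint 8, -0.18 at viewpoint 9 and 0.21 at viewpoint 10, each with lines on both sides of 0. The 6 viewpoints with the 6 highest ratios had 8 to 22 protein-coding genes within 250 kb, and viewpoints 4, 6, 7, 8 and 10 had 0 to 2. Viewpoint 9, with 10 genes, was the exception, and the cluster itself lies within 250 kb of it. Distance sorted the viewpoints in much the same way. Viewpoints 6 to 10, at 152.15 to 153.94 Mb, lie nearest to the cluster, and the 6 with the highest ratios lie farther away. Viewpoint 4, which also lies farther away, was the exception there. Whether gene surroundings or distance go with the ratio was not tested.

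Several fragments of the cluster had reads from viewpoint 5. From viewpoint 5 the Dffb fragment had 1705 RPM (1010 to 1982, 6 libraries), the A430005L14Rik fragment 812 (625 to 1530), the BC046331 fragment 781 (306 to 1607) and the shared start fragment 671 (126 to 1014). All 4 had reads in every library of viewpoint 5. From viewpoint 8, inside the region, the Dffb fragment had 4070 (1794 to 4784, 5 libraries), whereas the BC046331 fragment farther downstream had 103 (31.8 to 1094). Without the most-read fragment of the cluster and of the rest, the ratio was log2 2.098 at viewpoint 1, 2.76 at viewpoint 3, 2.97 at viewpoint 5, 1.66 at viewpoint 11 and 0.91 at viewpoint 12. At viewpoint 2 it turned to log2 -1.21, and at viewpoint 8 it went to -1.30. In captured fragments the ratio was log2 1.36 at viewpoint 1, 1.45 at viewpoint 3, 0.69 at viewpoint 5 and 0.09 at viewpoint 12.

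Ajap1, the only protein-coding gene outside the cluster, was no such exception. From viewpoint 5 its observed over expected reads were 0.955 (0.466 to 1.33, 6 libraries), against 0.580 (0.442 to 0.747) in the stretch before it, 1.00 (0.826 to 1.61) in the stretch after it and 6.58 (5.34 to 7.68) in the cluster. From viewpoint 3 Ajap1 had 0.148 (0.00738 to 1.45), the stretch before it 0.456 (0.331 to 0.524), the stretch after it 0.940 (0.450 to 1.196) and the cluster 5.60 (4.57 to 7.82). In both cases the cluster's lowest library lay above the highest library of each other stretch. From viewpoint 6 the order was another, with 1.60 before Ajap1, 2.72 in Ajap1, 3.97 after it and 2.77 in the cluster.

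**Figure D5:**
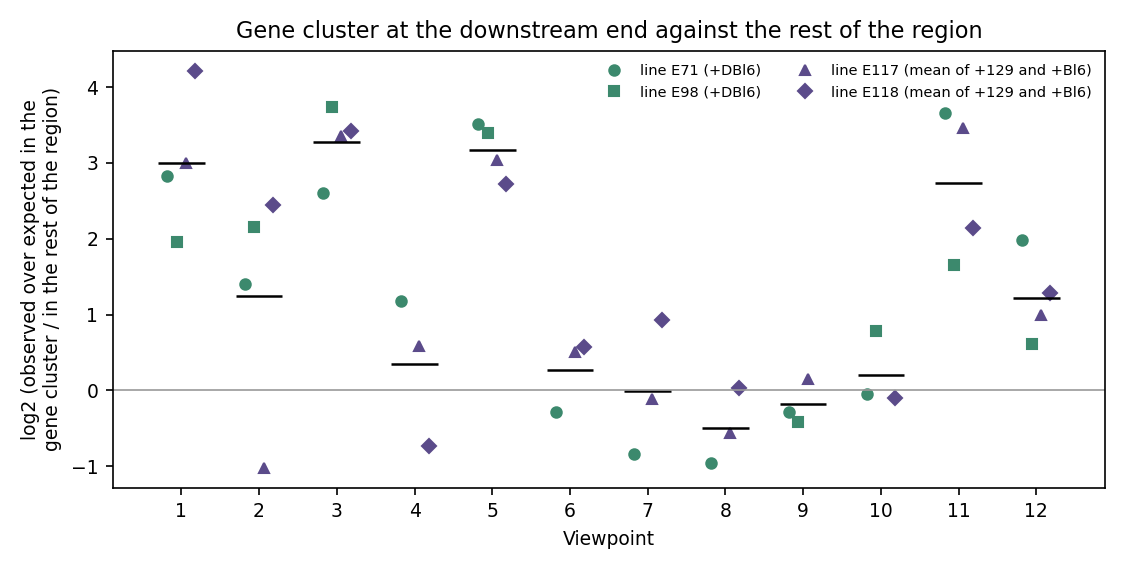
Log2 of observed over expected reads in the gene cluster from A430005L14Rik to Lrrc47, relative to the rest of the region, for each viewpoint. Points are MEF lines and bars are their mean. All lines lie above 0 at viewpoints 1, 3, 5, 11 and 12, and lines lie on both sides of 0 at viewpoints 2, 4 and 6 to 10.

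Whether contacts of the region differ on the intact homologue of deletion cells was asked with +DBl6 against +Bl6. No viewpoint passed the test of the region's share of reads (0 of 12, 0%; limma, smallest adjusted p = 0.652, 0 at unadjusted p under 0.05). At viewpoint 7, +DBl6 had 52.4% and +Bl6 48.2% and 55.4%, a ratio of 1.01-fold (95% interval 0.697 to 1.47). At viewpoint 8, +DBl6 had 52.1% and +Bl6 45.1% and 51.1%, a ratio of 1.08-fold (0.840 to 1.40). At viewpoint 6, +DBl6 had 30.5% and +Bl6 29.1% and 29.4%, a ratio of 1.04-fold (0.910 to 1.19). At viewpoint 9, +DBl6 had 16.7% and 16.8% and +Bl6 13.3% in its summed library, a ratio of 1.26-fold (0.988 to 1.61). Over the 12 viewpoints the ratios ran from 0.794-fold (viewpoint 10) to 2.00-fold (viewpoint 2, interval 0.426 to 9.39). The intervals at viewpoints 2 and 11 (0.127 to 7.24) were wide, so changes of several fold were not detectable there. The line pairs purified with the same kit disagreed in sign at viewpoints 1, 2, 5, 11 and 12.

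The 2 intact chromosomes of the control lines were compared in the same way as background. +129 against +Bl6 also passed at no viewpoint (0 of 12, 0%; limma, smallest adjusted p = 0.708, 0 at unadjusted p under 0.05). Ratios ran from 0.367-fold at viewpoint 11 (interval 0.0485 to 2.78), where the +129 library of line E117 was low (log2 -1.45, and -0.06 without that library), to 1.36-fold at viewpoint 2. At viewpoint 3, +129 had 1.46% and 1.55% and +Bl6 0.983% and 1.27%, without overlap, and the ratio of 1.35-fold did not pass (limma adjusted p = 0.708).

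Windows of 80 kb were tested in the same comparisons over the whole chromosome. For +DBl6 against +Bl6, 14 of 9691 windows passed (0.144%; edgeR quasi-likelihood test, Benjamini-Hochberg adjusted p under 0.05). In the region 3 of 133 passed, all 3 higher on +DBl6 and all from viewpoint 7. The 11 that passed outside the region were also higher on +DBl6, and viewpoint 7 gave 9 of the 14. In the region, 14 of 133 had an unadjusted p under 0.05 (10.5%, against 5.62% of the other windows of the chromosome). Of these 14, 7 were from viewpoint 7. The 3 windows that passed in the region were chr4:152400001-152480000 (log2 1.01, edgeR adjusted p = 0.0109), chr4:152480001-152560000 (log2 1.88, edgeR adjusted p = 8.56e-09) and chr4:152720001-152800000 (log2 1.74, edgeR adjusted p = 0.0061). The first 2 windows adjoin or hold the viewpoint, and the last holds part of Ajap1.

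The size of these changes depended on how the libraries were scaled. At viewpoint 7, +DBl6 is 1 summed library of 3770952 reads with a TMM factor of 0.480, against 1.12 to 1.26 in the other 4 libraries. As a percent of reads, chr4:152400001-152480000 had 13.01% on +DBl6 and 22.7% and 9.73% on +Bl6 (E117, E118), so +DBl6 lay between both. chr4:152480001-152560000 had 13.3% against 7.73% and 10.7%, and chr4:152720001-152800000 had 4.70% against 2.83% and 4.36%. With scaling by total reads the log2 changes were -0.32, 0.53 and 0.39 and none passed. DESeq2 gave log2 changes of 0.84, 1.85 and 1.72, near those of edgeR, but called 0 of 133 windows (11 at unadjusted p under 0.05). The scaling moved the median of all windows of viewpoint 7 from log2 -0.49 to -1.84. For +129 against +Bl6, 0 of 9691 windows passed (0%), and 36 with the MEF line as a replicate block, none of them in the region. A count of 0 does not show equal contacts. In simulated counts of viewpoint 5 for +DBl6 against +Bl6, 0 of 200 windows changed by 16-fold were recovered at the measured dispersion. In the region, +129 against +Bl6 gave 0 of 133 by edgeR (4 at unadjusted p under 0.05, 3.01% against 1.89% of the other windows) and 0 by DESeq2 (5 at unadjusted p under 0.05). The smallest p there was at chr4:152400001-152480000 from viewpoint 8 (log2 0.82, edgeR adjusted p = 1.0).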

How the data were processed

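PE-4Cseq was measured in 96 libraries: 4 chromosomes, 12 viewpoints and 2 MEF lines per chromosome. Per the authors' methods, read pairs were split by sample and by the polymorphism in the viewpoint read, the other read was trimmed to 30 bases and aligned with Bowtie (version not given in the sources used here) to sequences bordering HindIII sites of mm9, with up to 3 mismatches and unique matches only. What was deposited are counts of reads for each HindIII fragment of chromosome 4, not normalized, and unique matching leaves repeats uncounted. Of the 48320 deposited fragment ends, 48319 matched HindIII sites of the NCBIM37 genome, whose GENCODE genes were used. Separate deposited tables hold positions of regions the authors called different between chromosomes, which are not reported here.

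Reads within 20 kb of a viewpoint were left out. Libraries under 10000 reads were left out of all tests except the windows, and replicate pairs with a correlation above 0.9 were summed. Ratios were tested with limma 3.58.1 in R 4.3.3, with 1 value per line (E117 and E118 as the mean of +129 and +Bl6). A summed pair of lines gave 1 value. The expected reads came from the distance fall-off of the other viewpoints, per fragment and with the region's own fragments left out of the fall-off. Windows of 80 kb with at least 10 reads in 50% of libraries were tested with edgeR 4.0.16 per viewpoint, and DESeq2 1.42.0 was an alternative. In simulated counts of viewpoint 5 for +DBl6 against +Bl6, with 200 of 1308 windows changed by 16-fold, 0 were recovered at the measured dispersion and 200 with the dispersion divided by 10, with 9 false calls. Named were all protein-coding genes, the 5 most often captured fragments, and the windows past the threshold or with the smallest p. E71 and E117 were purified with a column kit and E98 and E118 with beads, per the authors' methods. The chromosomes +129 and +Bl6 of a line come from the same cells, and the difference between E117 and E118 correlated between them at r = -0.243 over 10 viewpoints. The region, genes and lists were chosen with earlier results of these data known. The gene cluster and the bins at its edge were chosen after the values were seen.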

Additional observations from a re-analysis of the deposited data

Results flagged for a closer look

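The captured fragments of viewpoint 1 were set apart by a difference between chromosomes. The share of fragments captured in the region over that in its mirror was 3.47 and 2.51 on +DBl6 (E71, E98), against 1.48 and 1.83 on +Bl6 (E117, E118), a log2 difference of 0.84 (limma adjusted p = 0.0314 over 10 viewpoints). This adjustment did not cover the read ratios or the comparison of +129 with +Bl6. On +129 of the control lines the ratios were 2.31 and 2.63, so the +129 and +DBl6 ranges overlap. +129 against +Bl6 differed by log2 0.58 and did not pass (limma adjusted p = 0.24). The read ratios of the same libraries were 3.07 and 1.60 on +DBl6 and 1.38 and 1.07 on +Bl6, and their difference did not pass (log2 0.86, limma adjusted p = 0.67). The +DBl6 library of E71 had 38860 reads and captured 8.82% of the fragments of the region, against 563248 reads and 32.7% in E98. The part of library depth in this difference was not tested.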

How the results depend on the processing

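Counts of viewpoints that differed from their mirror were 5 to 8 of 10 in reads and 4 to 6 in captured fragments over all alternatives, against 6 and 4. With each chromosome as a sample and the line as a replicate block, they were 7 and 5. Viewpoints 3, 6 and 9 kept direction and side of the threshold in reads under every alternative. Calls were gained in reads at viewpoint 7 without E71 (0.29) and at viewpoint 2 without E118 (1.75), and in captured fragments at viewpoint 6 without E117 (0.29) or E118 (0.63).

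Directions of read ratios (log2) turned with the fall-off of other viewpoints as reference at viewpoints 1 (-0.89), 2 (-3.10), 4 (-0.058) and 8 (-0.18), and with reads per kb at viewpoints 5 (0.042) and 10 (0.13). Captured ratios turned at viewpoint 8 with all libraries as labelled (0.026) and with at least 5 reads (0.097), at viewpoint 5 with only fragments captured from another viewpoint (0.0044), and at viewpoint 10 with at least 5 reads (-0.019) and without libraries shared between groups (-0.0099). None of the captured ratios that turned passed its test with all lines. Leaving out a line moved the read ratio of viewpoint 10 from -0.33 to 0.0096, and the captured ratios of viewpoint 5 from -0.044 to 0.0020, of viewpoint 8 from -0.075 to 0.031 and of viewpoint 10 from -0.0099 to 0.14.

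For the share of reads, +DBl6 against +Bl6, no viewpoint passed under any alternative except viewpoint 9 with all libraries as labelled (1 viewpoint, log2 0.33). In captured fragments the sign turned at viewpoints 1 (0.56), 4 (0.31), 5 (0.15), 6 (-0.44), 8 (-0.042), 10 (0.52) and 12 (0.076). It turned at viewpoint 11 without the most-read fragment (0.16), and with reads within 10 Mb at viewpoints 6 (-0.041) and 7 (-0.020). Leaving out a line gave -0.74 to 0.38 at viewpoint 1, -0.018 to 0.35 at 3, -0.33 to 0.046 at 5, -0.081 to 0.12 at 7, -0.30 to 0.18 at 11 and -0.23 to 0.034 at 12.

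For +129 against +Bl6 the signs turned in captured fragments at viewpoints 1 (0.37), 4 (0.022), 6 (0.031) and 10 (0.066), with 50 kb left out at 6 (0.0034), without the most-read fragment at 4 (0.0026), and with reads within 10 Mb at 4 (0.031) and 7 (-0.065). Leaving out a line gave -0.61 to 0.18 at viewpoint 1, -0.73 to 1.61 at 2 and -0.11 to 0.10 at 4. It gave -0.014 to 0.15 at 8 and -3.07 to 0.18 at 11. The -3.07, without E118, rests on the low +129 library of E117. The MEF line as replicate block left 0 viewpoints and 0 windows of the region.

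The 3 windows of +DBl6 against +Bl6 became 0 with scaling by total reads (log2 -0.32 at chr4:152400001-152480000), DESeq2, captured fragments per window, all libraries as labelled and the purification batch as a block, and 0 to 4 when a line was left out. In the order of position their log2 changes were 0.84, 1.85 and 1.72 with DESeq2 and 0.88, 1.54 and 1.41 as labelled, so the calls were lost with changes of similar size, whereas in captured fragments they were 0.10, 0.03 and 0.17. For +129 against +Bl6 leaving out a line gave 0 to 2, the 2 being at viewpoint 10 without E71. Over chromosome 4, the 14 windows of +DBl6 against +Bl6 became 9 with scaling by total reads, 287 with DESeq2, 62 with at least 1 read, 0 in captured fragments, 8 with the batch block and 2 to 249 without a line. The 0 of +129 against +Bl6 became 2 in 50 kb windows, 15 with DESeq2, 37 with at least 1 read, 1 as labelled, 36 with the MEF line block and 0 to 202 without a line. The cause of these changes was not tested. Fits of viewpoint 7 without E117 or E118, or with the batch block, could not be made, so its 3 windows are missing from those counts. The window chr4:152400001-152480000 also lost its call without E71 (log2 0.72). Few fragments were captured from viewpoints 1, 2 and 11 (medians of 14.1% to 21.1%), so read ratios there rest on few fragments.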
